A study of Mus musculus with 20 samples.

Results

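The E2F transcription factors were followed in bone marrow and kidney of mice given oxaliplatin, a platinum drug used against colorectal cancer. The members were chosen by name, as the rows with the symbols E2f1 to E2f8 in the raw count table of each tissue. These are 8 of the 55486 genes in each table, and all 8 were listed in both. RNA was sequenced from 20 libraries, 5 in each of 4 groups, and the labels call each library a biological replicate. The mice were C57BL/6, 10 weeks old at the start, with no deletion or transgene named. Over 8 weeks they were injected intraperitoneally each week with 5% dextrose, the vehicle, or with dextrose that held oxaliplatin at 10 mg/kg. Marrow was spun out of the leg bones 6 days after dosing ended. The methods name male and female mice without giving the sex of each. In all 20 libraries the Y-linked gene Ddx3y was read at 22.9 to 57.8 CPM (scaled counts, defined with the depth) and Xist, the RNA of the inactive X, at no more than 2.86 CPM, so that no library showed the pattern of a female mouse. It is not stated whether marrow and kidney of the same number came from the same mouse. Marrow RNA was extracted with Trizol before a column and kidney RNA on a column, so that tissue and extraction method cannot be told apart.

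E2F proteins bind DNA near genes needed for S phase and switch them on or hold them off. E2f1, E2f2 and E2f3 are known as activators that pair with a DP protein and are restrained by the retinoblastoma protein, until G1 cyclins and their kinases phosphorylate it. E2f4 and E2f5 act mostly as repressors in resting cells together with the retinoblastoma relatives p107 and p130. E2f6 works with a polycomb complex, and E2f7 and E2f8 bind DNA without a DP partner and turn E2F targets down late in the cycle. In marrow, E2f2, E2f4 and E2f8 are known for roles in the divisions and maturation of red cell precursors, and E2f7 is known as a gene that p53 can induce.

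Promoter windows were looked up to show the DNA upstream of the members whose transcripts moved. RefSeq windows on GRCm38.p6 matched 6 of the 8 members, in 8 windows, 2 each for E2f2 and E2f3; E2f4 and E2f5 had none. For E2f2 and E2f3 the window nearest the GENCODE start of the gene is printed. The 250 bases before the RefSeq start of E2f2 and E2f8, the members with the largest falls in marrow, of E2f3, which was lower in kidney, and of E2f7, which was higher there, are printed. Capitals mark the E2F words TTTCCCGC, TTTCGCGC, TTTGCCGC and TTTGGCGC and the word TTTGAA of the CHR element, the cell cycle genes homology region, each on either strand. No E2F word overlapped a CHR word in these windows.
E2f2, chr4:136172024-136172273, plus strand: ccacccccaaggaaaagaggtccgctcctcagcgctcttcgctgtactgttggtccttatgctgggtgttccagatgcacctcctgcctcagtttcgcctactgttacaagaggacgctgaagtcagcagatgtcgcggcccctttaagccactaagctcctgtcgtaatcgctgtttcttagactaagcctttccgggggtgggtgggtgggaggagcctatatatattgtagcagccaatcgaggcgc
E2f3, chr13:29986064-29986313, minus strand: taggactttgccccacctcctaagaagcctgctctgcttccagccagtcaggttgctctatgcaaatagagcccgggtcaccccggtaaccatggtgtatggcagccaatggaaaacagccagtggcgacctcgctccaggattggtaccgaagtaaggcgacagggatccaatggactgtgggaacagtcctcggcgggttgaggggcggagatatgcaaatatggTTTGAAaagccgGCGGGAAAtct
E2f7, chr10:110745189-110745438, plus strand: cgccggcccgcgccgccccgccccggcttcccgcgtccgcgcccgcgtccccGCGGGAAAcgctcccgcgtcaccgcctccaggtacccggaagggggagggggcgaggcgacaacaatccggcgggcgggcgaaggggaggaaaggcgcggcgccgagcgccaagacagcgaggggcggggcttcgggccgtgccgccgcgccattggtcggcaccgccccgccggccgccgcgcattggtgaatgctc
E2f8, chr7:48881597-48881846, minus strand: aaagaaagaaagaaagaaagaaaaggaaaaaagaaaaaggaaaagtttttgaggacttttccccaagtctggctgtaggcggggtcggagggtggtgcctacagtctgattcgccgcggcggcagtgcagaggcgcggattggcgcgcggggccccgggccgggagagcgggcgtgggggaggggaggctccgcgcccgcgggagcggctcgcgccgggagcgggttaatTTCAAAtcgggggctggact

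The E2f3 window held GCGGGAAA, an E2F word read on the other strand, at positions -11 to -4 from the start, next to TTTGAA at -23 to -18. In the E2f7 window the same E2F word lay at -198 to -191. The E2f8 window held TTCAAA, the CHR word on the other strand, at -20 to -15, and the E2f2 window held none of these words. The other E2f2 window, whose start lies 8388 bases inside the gene, held TTTGAA at -31 to -26, and the other E2f3 window, 1672 bases inside, held no word. Over all 32851 RefSeq windows of this length, 1.86% held an E2F word and 16.0% the CHR word. A match is a description of letters and not a binding site. The RefSeq start of E2f2 lies 120 bases before the GENCODE start of the gene.

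Library totals ran from 24393007 to 41140527 counts. Levels are given as CPM, read counts set to a common library total and scaled by TMM, a normalization that takes most genes as level between libraries. Hemoglobin and red cell membrane genes (late erythroid list) summed to 32812 to 56264 CPM in vehicle marrow, and proximal tubule genes to 15231 to 17865 CPM in vehicle kidney. Marrow libraries held 1.98 to 5.51 CPM of the tubule genes, and kidney libraries 0.953 to 4.39 CPM of mature neutrophil genes. The oxaliplatin marrow libraries 3 and 4 stood apart: their mature neutrophil genes summed to 7224 and 9988 CPM, against 21430.3 to 27619 in the other 3 and 18416 to 22518 in vehicle marrow. Tests compared 5 libraries with 5 by the quasi-likelihood method of edgeR, p-values were adjusted over every tested gene (Benjamini-Hochberg), and genes whose adjusted p was under 0.05 and whose change was over 1.5-fold were called. In marrow 5221 of 22363 genes were called (23.3%), 49.6% of them higher, or 63.4% with scaling by library size alone. In kidney 2216 of 19293 were called (11.5%), 66.8% of them higher, or 82.7% by library size alone. The median log2 fold change of all genes was -0.04 in marrow and 0.02 in kidney, and by library size alone 0.11 and 0.16. In bulk tissue, fewer cells of a type and less RNA per cell cannot be told apart.

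In bone marrow, E2f1, E2f2, E2f4 and E2f8 fell under oxaliplatin and no member rose. These 4 of the 8 members were called, all lower, where 11.8% of all genes tested were called lower. E2f7 also passed the adjusted p, which 16.8% of genes did downward, with a change under 1.5-fold, and E2f3, E2f5 and E2f6 did not pass. The 4 called members did not overlap between groups, as for 13.5% of genes in that direction. The 8 transcripts together summed to 1151 to 1525 CPM in vehicle marrow and to 512 to 755 CPM under oxaliplatin, ranges that do not overlap. The median of the 8 log2 fold changes was -0.57.

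**Figure D1:**
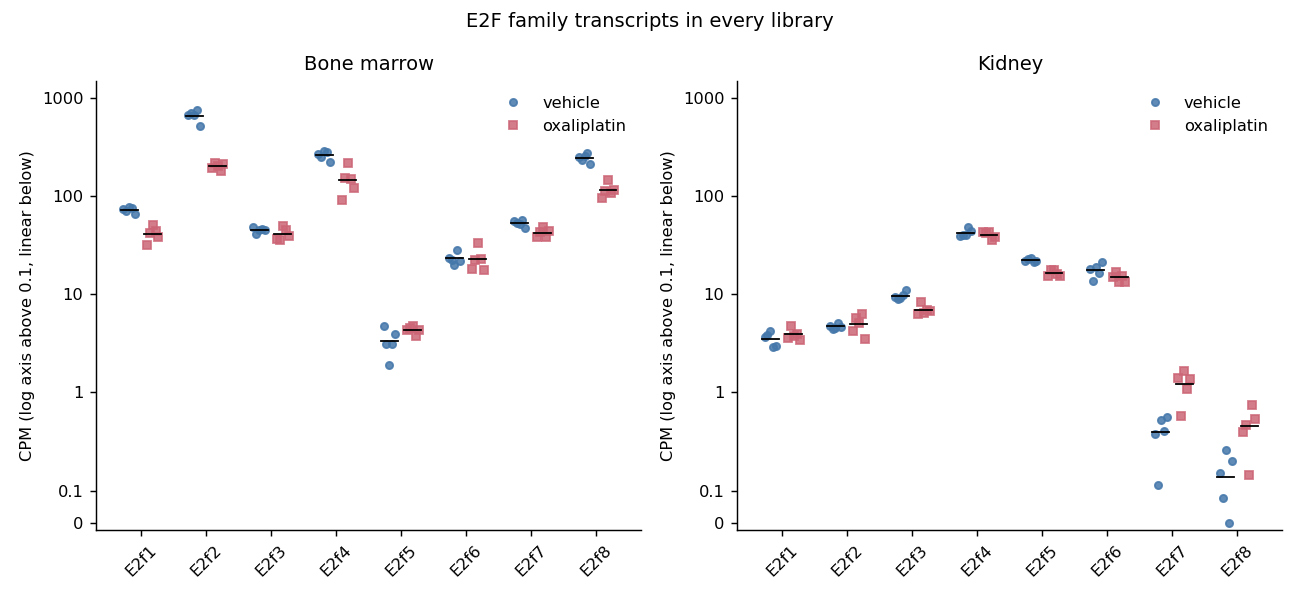
CPM of the 8 E2F genes in every library of bone marrow (left) and kidney (right). Circles are vehicle and squares oxaliplatin libraries, in replicate order from left to right, and bars are means of 5; the axis is logarithmic above 0.1 CPM. Marrow E2f1, E2f2, E2f4 and E2f8 separate by group downward. In kidney E2f7 separates upward, and E2f3 and E2f5 downward.

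Among the activators, E2f2 (ENSMUSG00000018983, chr4:136172394-136196057) had the largest change. Its level was 678, 701, 675, 753 and 528 CPM in vehicle marrow libraries 1 to 5, and 194, 221, 202, 182 and 215 CPM under oxaliplatin. Every treated library lay below every vehicle library, and the 5 treated values were close together. Its log2 fold change was -1.72 ± 0.11 (SE; adjusted p = 3.3e-07).

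E2f1 (ENSMUSG00000027490, chr2:154559407-154569892), the activator best known for both S-phase entry and cell death, fell less. It was read at 74.0, 71.2, 77.6, 75.9 and 65.5 CPM in vehicle marrow and at 31.9, 42.1, 50.9, 44.2 and 38.6 CPM in treated marrow. The groups did not overlap, with treated library 1 lowest and treated library 3 highest. The log2 fold change was -0.81 ± 0.11 (adjusted p = 1.3e-04), from 72.8 ± 4.75 to 41.5 ± 7.02 CPM (SD, n = 5 each).

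E2f3 (ENSMUSG00000016477, chr13:29906575-29986063), the third activator, did not pass. Vehicle libraries held 48.3, 41.1, 45.8, 46.4 and 45.3 CPM and oxaliplatin libraries 36.9, 36.1, 49.3, 45.4 and 39.5 CPM. The highest value of all 10 was in a treated library. Its log2 fold change was -0.13 ± 0.10 (adjusted p = 0.361), and -0.27 (adjusted p = 0.0215) with treated libraries 3 and 4 left out. The gene has 2 promoters with different first exons, and counts per gene do not separate their products.

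In the repressor pair that binds p107 and p130, only E2f4 was called. E2f4 (ENSMUSG00000014859, chr8:105297663-105305370) stood at 269, 254, 288, 280.2 and 222 CPM in vehicle marrow and at 92.0, 154, 217, 149.9 and 121 CPM under oxaliplatin. The treated libraries spread more than for any other called member, yet their highest value, in library 3, was still below the lowest vehicle value. The log2 fold change was -0.84 ± 0.18 (adjusted p = 0.0034). Without treated libraries 3 and 4 it was -1.10.

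E2f5 (ENSMUSG00000027552, chr3:14578641-14606309) was the scarcest member in marrow. Vehicle values were 4.72, 3.14, 1.89, 3.14 and 3.96 CPM and treated values 4.35, 4.58, 4.78, 3.78 and 4.31 CPM. The groups overlapped, and the log2 fold change was 0.37 ± 0.22 (adjusted p = 0.233).

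E2f6 (ENSMUSG00000057469, chr12:16810963-16839742), the polycomb-linked member, had nearly the same mean in both groups. It measured 23.5, 22.4, 19.98, 28.6 and 22.1 CPM in vehicle and 17.97, 22.6, 33.7, 22.9 and 17.8 CPM in treated marrow. Treated library 3 was again the highest, and the treated values lay on both sides of the vehicle range. The log2 fold change was -0.02 ± 0.17 (adjusted p = 0.942).

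The 2 atypical members moved by different amounts. E2f8 (ENSMUSG00000046179, chr7:48866429-48881596) was at 254, 235, 258, 279.6 and 216 CPM in vehicle marrow and at 96.7, 114, 148, 107 and 116 CPM after oxaliplatin, with no overlap. Its log2 fold change was -1.10 ± 0.12 (adjusted p = 1.5e-05). E2f7 (ENSMUSG00000020185, chr10:110745439-110787384) was at 55.9, 53.6, 52.7, 57.8 and 47.7 CPM in vehicle and at 38.7, 43.4, 48.3, 38.4 and 44.0 CPM in treated marrow. Treated library 3 overlapped the lowest vehicle library, and the log2 fold change of -0.33 ± 0.09 (adjusted p = 0.0126) was not called; by library size alone it was -0.18 (adjusted p = 0.10).

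In the kidney the 8 transcripts together were far less abundant, at 94.9 to 107 CPM in vehicle libraries, although E2f5 alone stood higher than in marrow. The family also moved differently there. Of the 7 members tested 1 was called, E2f7, and it was higher, beside 7.68% of all genes called higher. E2f3 and E2f5 passed the adjusted p but changed by less than 1.5-fold, so that 3 of 7 members passed, beside 29.4% of all genes. The same 3 members did not overlap between groups, beside 20.7% of all genes. E2f1, E2f2, E2f4 and E2f6 did not pass, and E2f8 had too few counts to pass the filter. The median of the 7 log2 fold changes was -0.06.

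E2f7 counts in kidney were small, 10, 3, 12, 10 and 14 reads in vehicle libraries 1 to 5 and 39, 17, 46, 31 and 46 under oxaliplatin. As levels these were 0.373, 0.114, 0.518, 0.403 and 0.567 CPM and 1.40, 0.572, 1.65, 1.09 and 1.38 CPM. The lowest treated library, number 2, lay just above the highest vehicle library. The log2 fold change was 1.62 ± 0.38 (adjusted p = 0.0040), a 3.08-fold rise.

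E2f8 in kidney gave 4, 2, 6, 0 and 5 reads in vehicle and 11, 14, 4, 21 and 18 in treated libraries. The third treated library fell inside the vehicle range, so the groups overlapped. Kidney libraries alone left it untested, so its kidney counts are given without a test.

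E2f3 and E2f5 were the kidney members that were lower. E2f3 was at 9.33, 9.03, 9.16, 9.78 and 11.1 CPM in vehicle kidney and at 6.28, 8.42, 6.47, 6.91 and 6.84 CPM under oxaliplatin, a log2 fold change of -0.47 ± 0.11 (adjusted p = 0.0051). E2f5 was at 22.2, 23.2, 23.3, 21.6 and 22.1 CPM in vehicle kidney and at 15.3, 17.5, 17.7, 16.2 and 15.5 CPM under oxaliplatin, a log2 fold change of -0.45 ± 0.08 (adjusted p = 3.6e-04). Neither gene's groups overlapped. The spread within each E2f5 group was small next to the gap between them.

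The remaining members overlapped between kidney groups. E2f1 was 3.54 ± 0.577 CPM in vehicle and 3.91 ± 0.516 CPM in treated kidney (SD, n = 5 each; log2 fold change 0.14 ± 0.16, adjusted p = 0.534). E2f2 was 4.72 ± 0.269 and 4.96 ± 1.12 CPM (0.07 ± 0.16, adjusted p = 0.766). E2f4, the most abundant member in kidney, was 42.6 ± 4.03 and 40.8 ± 3.35 CPM (-0.06 ± 0.08, adjusted p = 0.573; 0.07 by library size alone). E2f1, E2f2 and E2f4, all called lower in marrow, each had a kidney log2 fold change smaller than its SE. E2f6 ranged from 13.7 to 21.2 CPM in vehicle and from 13.5 to 17.0 CPM in treated kidney (-0.25 ± 0.11, adjusted p = 0.0935), and passed without vehicle library 2 (-0.34, adjusted p = 0.0192).

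**Figure D2:**
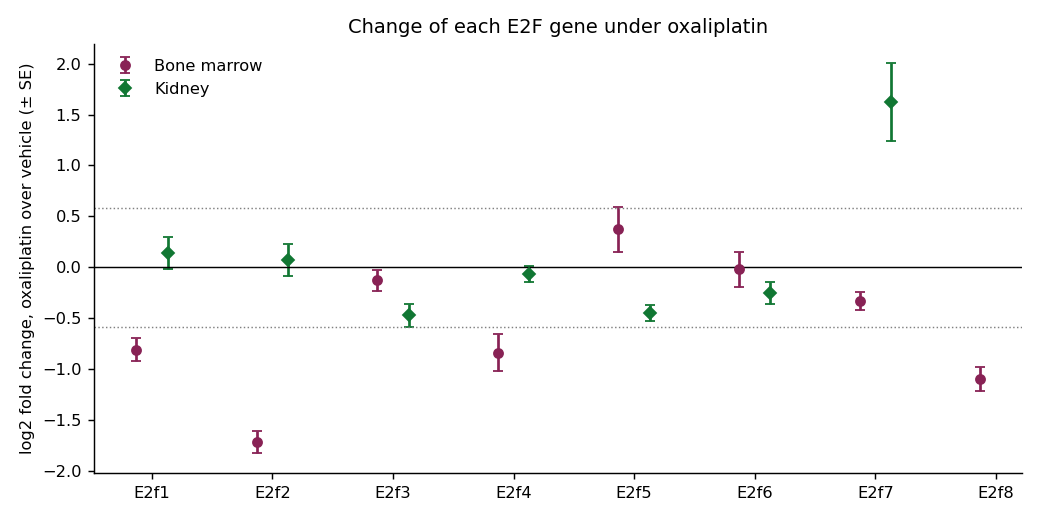
Log2 fold change of each E2F gene, oxaliplatin over vehicle, with its standard error, in bone marrow (circles) and kidney (diamonds); n = 5 libraries a group. Dotted lines mark 1.5-fold; E2f8 was not tested in kidney. E2f2 at -1.72 in marrow and E2f7 at 1.62 in kidney are the 2 ends.

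Whether oxaliplatin acted differently in the 2 tissues was tested gene by gene as an interaction over the 20 libraries. The difference, marrow change minus kidney change on the log2 scale, passed for 5 of the 7 members that could be tested within each tissue, beside 30.1% of 24321 genes. Unlike the 7 members, those genes include ones that passed the filter through 1 tissue only. E2f8 was left out, since only its marrow counts carried it past the filter. The difference was -1.73 ± 0.18 for E2f2, -0.89 ± 0.19 for E2f1 and -0.70 ± 0.23 for E2f4 (adjusted p = 1.5e-07, 0.0013 and 0.0213). E2f4 lost this call without treated marrow library 5 (-0.59, adjusted p = 0.0514). For the atypical member E2f7 it was -1.90 ± 0.32 (adjusted p = 9.2e-05). E2f5 went the other way, with a difference of 0.88 ± 0.22 (adjusted p = 0.0040). The values of 0.40 ± 0.16 for E2f3 and 0.30 ± 0.23 for E2f6 did not pass (adjusted p = 0.0601 and 0.345). E2f3 passed with DESeq2 (adjusted p = 0.0416) and without vehicle marrow library 1, treated marrow library 1, 2 or 5, or treated kidney library 2 (0.46 to 0.49, adjusted p at most 0.0479).

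Levels between members were compared per kb of exon, and the order differed between tissues. In vehicle marrow E2f2 and E2f4 led with 137 ± 17.2 and 107 ± 10.6 CPM per kb (SD, n = 5) and overlapped each other. E2f8 followed at 45.7 ± 4.42, E2f1 at 23.1 ± 1.51, E2f3 at 8.36 ± 0.491, E2f7 at 5.95 ± 0.424, E2f6 at 4.12 ± 0.567 and E2f5 at 1.89 ± 0.593 CPM per kb, each apart from the next. Under oxaliplatin E2f4 came first with 59.9 ± 19.1 and E2f2 second with 41.5 ± 3.24 CPM per kb, again overlapping. Thereafter the order was the same, with E2f7 and E2f6 now overlapping.

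In vehicle kidney E2f4 led at 17.4 ± 1.64 CPM per kb and E2f5, last in marrow, was second at 12.6 ± 0.428. E2f6 followed at 3.14 ± 0.495, E2f3 at 1.78 ± 0.158, E2f1 at 1.12 ± 0.183 and E2f2 at 0.966 ± 0.0552 CPM per kb, the last 2 overlapping. E2f7 and E2f8 were lowest at 0.0439 ± 0.0196 and 0.0253 ± 0.0188 CPM per kb and overlapped. The order of means was the same in treated kidney. Between vehicle tissues, the log2 difference, marrow minus kidney, was 6.71 for E2f2, 6.66 for E2f7, 3.93 for E2f1, 2.19 for E2f4 and 1.80 for E2f3. E2f8, with 0 to 6 reads in vehicle kidney, is given by its levels alone. E2f5 was lower in marrow by a log2 difference of -3.16, and E2f6 did not differ detectably (-0.04 ± 0.16, adjusted p = 0.824; 0.38, adjusted p = 0.0201, by library size alone). These 6 calls of 7 stand beside 72.9% of all genes called between the tissues, with a median log2 difference of 0.12. That share again includes genes that passed the filter through 1 tissue only.

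**Figure D3:**
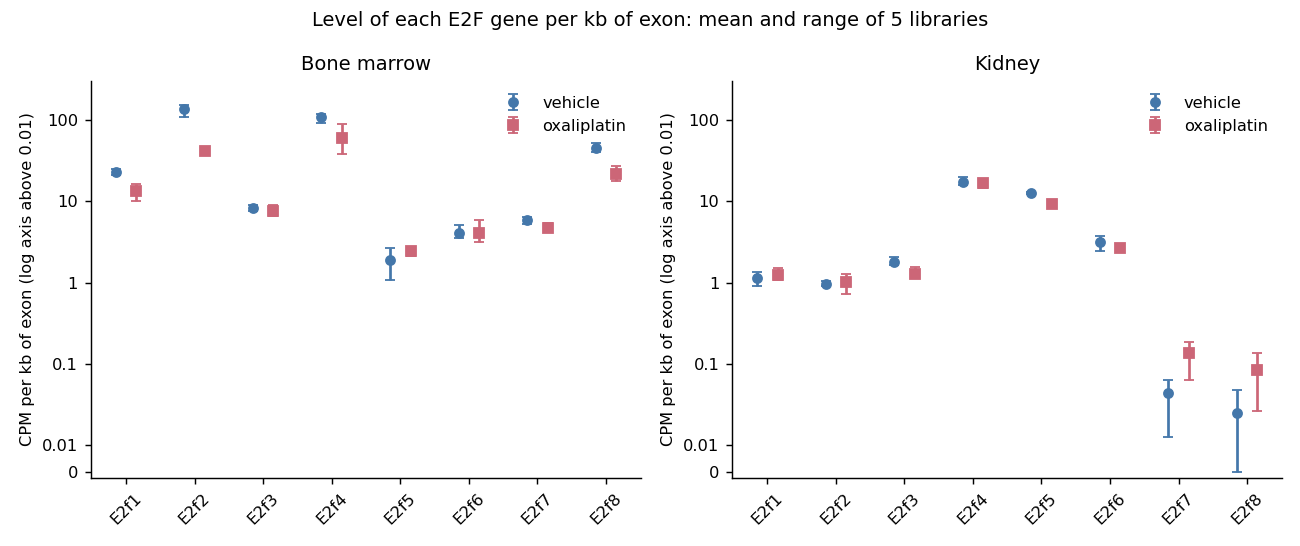
Level of each E2F gene in CPM per kb of exon in bone marrow (left) and kidney (right), vehicle (circles) and oxaliplatin (squares); points are means and bars the range of 5 libraries, on an axis logarithmic above 0.01. E2f2 and E2f4 lead in marrow, E2f4 and E2f5 in kidney.

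Ratios of 2 members within a library depend on library scaling only through the prior count of 2, added before logs were taken. An exact two-sided permutation test over the splits of 10 libraries was run on 9 such ratios. In marrow the log2 ratio of E2f1 to E2f2 went from -3.19 ± 0.126 to -2.30 ± 0.271 (SD, n = 5 each; p = 0.00794 by the exact permutation test, the smallest it can give, adjusted p = 0.0119). The ratio of E2f3 to E2f2 rose by 1.57, that of E2f7 to E2f8 rose by 0.77, that of E2f1 to E2f3 fell by 0.68 and that of E2f4 to E2f5 fell by 1.31, all with the same exact p. In each of these 5 ratios every treated library lay beyond every vehicle library. The kidney ratio of E2f1 to E2f3 rose by 0.62 with the same exact p of 0.00794. E2f4 to E2f5 rose by 0.39 there and E2f3 to E2f2 fell by 0.52 (exact permutation p = 0.0159, adjusted p = 0.0179 for both), and E2f1 to E2f2 differed by 0.10 (exact permutation p = 0.587).

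DP proteins are the dimer partners of E2f1 to E2f6. Tfdp2 fell in marrow from 435, 470.3, 414, 461 and 340.3 CPM to 65.9, 73.5, 79.3, 66.0 and 68.8 CPM, a log2 fold change of -2.58 ± 0.11 (adjusted p = 1.9e-08). This change was larger than that of any E2F gene and the treated libraries were tightly grouped. Tfdp1 was 242 ± 9.26 and 229 ± 29.6 CPM in the same libraries (-0.08 ± 0.10, adjusted p = 0.571). In kidney Tfdp1 and Tfdp2 had log2 fold changes of -0.05 and 0.02 and neither passed.

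Of the pocket proteins, which bind E2Fs and block activation, Rb1 and Rbl1 (p107) fell in marrow and Rbl2 (p130) did not pass. Rb1 went from 226 ± 10.1 to 136 ± 16.4 CPM (log2 fold change -0.73 ± 0.10) and Rbl1 from 130.1 ± 7.30 to 75.3 ± 8.91 CPM (-0.79 ± 0.09). Rbl2 was 65.4 ± 2.26 and 68.7 ± 8.71 CPM. In kidney Rb1 was higher in every treated library, 23.5 ± 1.56 against 31.6 ± 3.75 CPM (0.43 ± 0.09, adjusted p = 0.0015), a change under 1.5-fold, while Rbl1 and Rbl2 did not pass.

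The MuvB complex and its partners Mybl2 and Foxm1 link E2F-pocket repression with later mitotic genes. In marrow 4 of 8 genes of this list were called, all lower, beside 11.8% of all genes called lower. Among them were Foxm1 (-0.86 ± 0.08) and Lin9 (-0.80 ± 0.10), and the list median was -0.60. In kidney 2 of 8 were called, both higher, beside 7.68% of all genes called higher. They were Mybl1 (1.37 ± 0.31) and Foxm1 (0.85 ± 0.19), at no more than 3.10 CPM in any library. None of the 10 partners of E2f6 in its polycomb complex was called in either tissue. Their median log2 fold changes were -0.06 and -0.01.

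Upstream of the retinoblastoma protein, cyclin and inhibitor genes moved in both directions in marrow. Over all genes 23.3% were called in marrow and 11.5% in kidney, in either direction. The D-type cyclins Ccnd2 (99.1 ± 11.3 to 399.8 ± 94.2 CPM) and Ccnd1 (19.5 ± 2.47 to 53.9 ± 10.9 CPM) rose, and the kinase gene Cdk2 fell (-0.64 ± 0.08), 3 of the 6 genes in that list. Among 7 CDK inhibitors 4 were called higher, led by Cdkn1a (p21; 6.56 ± 0.405 to 136 ± 31.8 CPM) and Cdkn2a (log2 fold change 3.40 ± 0.45). Cdkn2a was scarce, at 0.158 ± 0.108 CPM in vehicle and 1.71 ± 0.665 CPM in treated marrow, so its fold change rests on few vehicle reads. Called lower were 2 inhibitors, Cdkn2c (-1.26 ± 0.12) and Cdkn1b (p27; -0.91 ± 0.16). In kidney 1 of 6 inhibitors tested was called, Cdkn1a (3.04 ± 1.15 to 115 ± 31.8 CPM), and 1 of 6 cyclins and kinases, Ccnd1 (0.63 ± 0.08). Genes whose products mark E2F proteins for degradation were 3 in number. In marrow Fzr1 (-1.44 ± 0.12) and Ccnf, which encodes cyclin F (-1.16 ± 0.12), fell, and in kidney Ccnf rose (0.645 ± 0.203 to 1.66 ± 0.429 CPM).

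Genes with known E2F control at the G1/S step went down together in marrow. Of 46 such genes 32 were called lower, beside 11.8% of all genes, and none higher. Their median log2 fold change was -0.80 beside -0.04 over all genes. Cdc6, which loads the replicative helicase, fell most (-1.60 ± 0.25), followed by the repair gene Brca1 (-1.32 ± 0.14). Of 30 genes of the G2/M step 26 were called lower and none higher, with a median of -0.91. Mki67, the proliferation marker, went from 3156 ± 245 to 1096 ± 149 CPM, and Nusap1, a spindle gene, fell by 1.45 on the log2 scale. The summed G1/S genes of treated marrow libraries 1 to 5 were 2829, 4001, 6018, 4306 and 3494 CPM. Library 3 was highest and library 1 lowest, as for E2f1, E2f4 and E2f8. E2f2 did not follow this order, with library 2 highest (221 CPM) and library 4 lowest (182 CPM).

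In kidney the called genes of the same 2 lists were all higher, from a low base. Of the 46 G1/S genes 10 were called higher, beside 7.68% of all genes, and none lower. Their median was 0.26 beside 0.02 over all genes, and Cdc6 (1.46 ± 0.39) was among those called. Of 26 G2/M genes tested 17 were called higher and none lower, with a median of 1.01. Ube2c (1.76 ± 0.31) and Top2a (1.73 ± 0.379 to 5.81 ± 1.28 CPM) rose most. The G2/M genes together reached 42.2 to 51.6 CPM in vehicle and 66.3 to 94.2 CPM in treated kidney, against 7021 to 8822 CPM in vehicle marrow. Tests of G1/S and G2/M genes in each tissue share the libraries of the E2F genes, and these counts are descriptions of both lists.

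**Figure D4:**
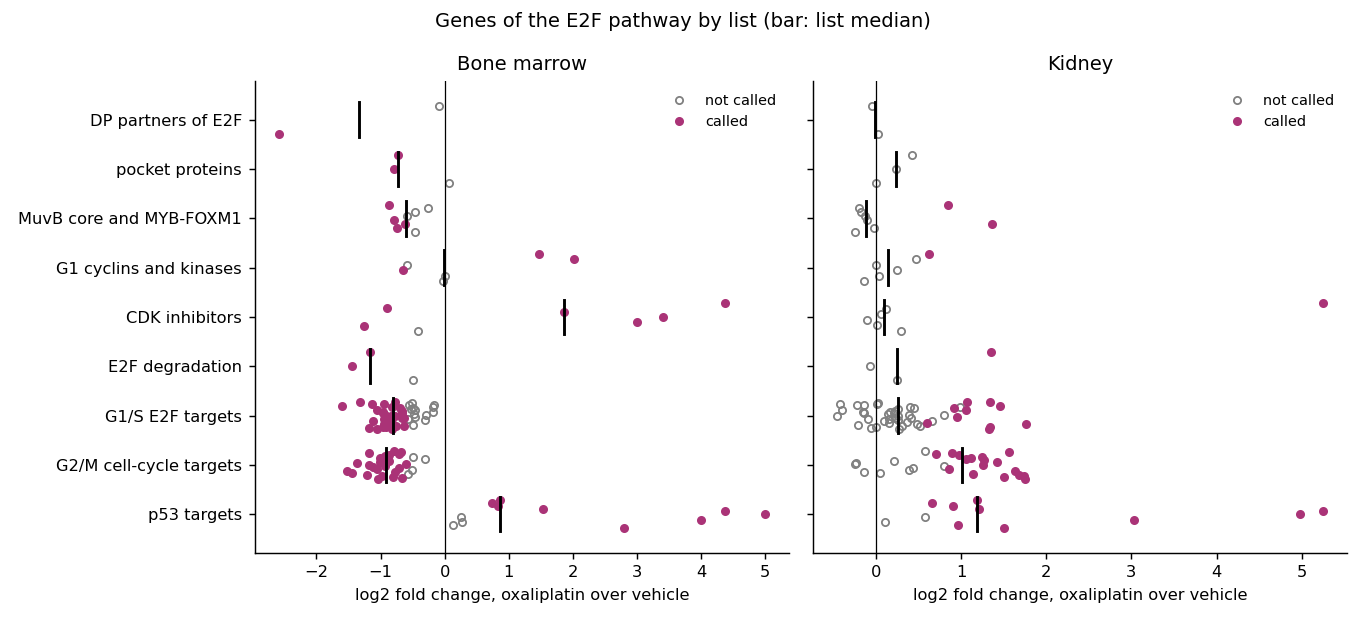
Log2 fold change, oxaliplatin over vehicle, of every tested gene in 9 lists of the E2F pathway in bone marrow (left) and kidney (right). Filled points were called, open points were not, and bars are list medians; the medians of the G1/S and G2/M lists lie below 0 in marrow (-0.80 and -0.91) and above 0 in kidney (0.26 and 1.01), with single kidney genes on both sides of 0.

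Both words were also counted in the promoter windows of these lists, beside the 1.86% and 16.0% over all windows. Of the 46 windows of 38 G1/S genes 12 held an E2F word (26.1%) and 4 the CHR word (8.7%). Of the 27 windows of 25 G2/M genes 1 held an E2F word (3.7%) and 10 the CHR word (37.0%). Of the 8 windows of E2F genes 2 held an E2F word and 3 the CHR word. The RefSeq start of E2f1 lies 466 bases inside the gene, so its window, which held no word, is not the DNA upstream of the gene.

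Genes of the p53 response rose in both tissues, 8 of 11 in marrow and 9 of 11 in kidney, with medians of 0.86 and 1.18. Eda2r (log2 fold change 4.99 ± 0.42 in marrow and 4.98 ± 0.23 in kidney), a receptor gene of the TNF receptor family, and Cdkn1a led both. Eda2r was scarce in vehicle libraries, at 0.254 ± 0.200 CPM in marrow and 0.295 ± 0.108 CPM in kidney. Treated libraries held 8.12 ± 2.42 and 9.40 ± 1.75 CPM, so the size of its fold change rests on few vehicle reads. Among 6 apoptosis genes linked to E2f1, Pmaip1 (1.14 ± 0.18) and Bbc3 (0.83 ± 0.10) were called higher in marrow, and Bbc3 (0.90 ± 0.24) in kidney. Bbc3 is also in the p53 list. In marrow 1 gene of the 6 passed the adjusted p lower, which 16.8% of genes did downward. The list median was -0.007 in marrow and 0.39 in kidney. The counts of called genes in both lists stand beside 23.3% of all genes called in marrow and 11.5% in kidney, in either direction.

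Cell type markers moved beside the E2F genes in marrow, and their part in the result was not tested. Of all marrow genes tested 23.3% were called in either direction and 11.8% were called lower. All 11 late erythroid genes were called lower, with a summed level of 4341 to 10927 CPM in treated marrow. That sum was highest in library 2 and lowest in library 4, as for E2f2. Of 6 early erythroid genes 5 were lower, Car1 and Klf1 most (-1.97 ± 0.21 and -1.65 ± 0.36). The early erythroid sum in treated libraries 1 to 5 was 528, 795, 1211, 806 and 568 CPM, with library 3 highest and library 1 lowest. Of 11 B-cell progenitor genes 8 were lower, with a sum of 354 to 634 CPM in vehicle and 89.5 to 172 CPM in treated marrow. No gene of the 6 neutrophil progenitor or 9 mature neutrophil genes was called. Higher in treated marrow were 5 of 5 adipocyte, 4 of 5 megakaryocyte, 3 of 5 macrophage and 3 of 4 muscle genes. No muscle gene separated the groups without overlap. Of the stem and progenitor genes 1 of 6 was called, higher, and of the T-cell genes 1 of 5, lower. These 2 shares are below the 23.3% called over all genes. With treated libraries 3 and 4 left out, a check added after seeing the data, the same 4 members were called, with log2 fold changes of -0.96 (E2f1), -1.67 (E2f2), -1.10 (E2f4) and -1.19 (E2f8).

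**Figure D5:**
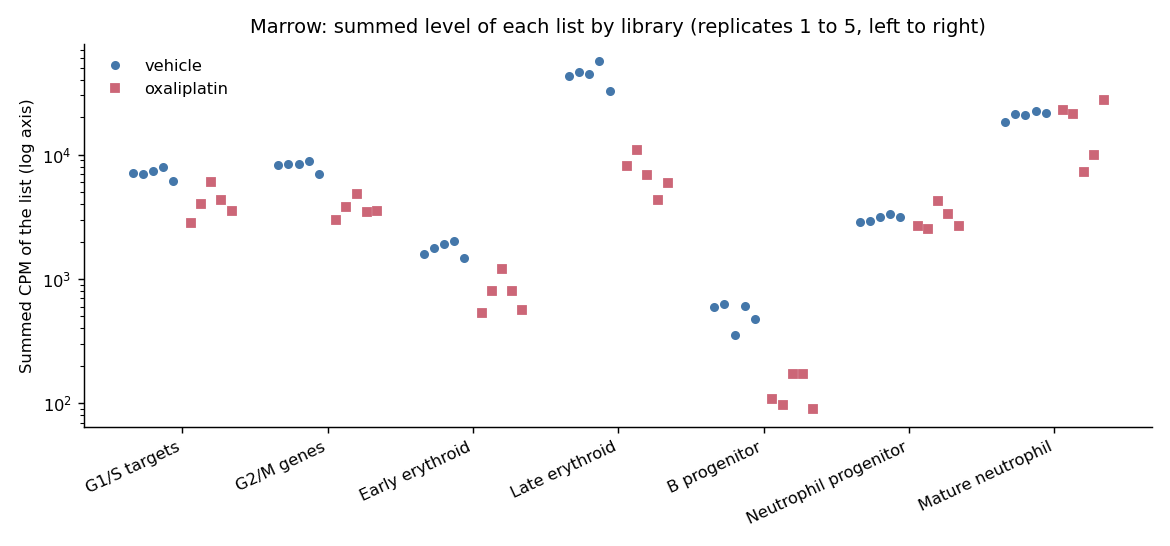
Summed CPM of 7 gene lists in each marrow library, vehicle (circles) and oxaliplatin (squares), replicates 1 to 5 from left to right on a log axis. Cell-cycle, erythroid and B-progenitor lists are lower under oxaliplatin without overlap, and mature neutrophil genes are low in treated libraries 3 and 4.

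Marker lists also moved beside the rise of E2f7 in kidney, and their part in it was not tested. Early erythroid genes summed to 62.5 to 75.6 CPM in vehicle and 51.5 to 69.2 CPM in treated kidney, and neutrophil progenitor genes to at most 0.725 CPM in any library. None of 4 early erythroid genes tested was called, where 11.5% of all kidney genes were called and 7.68% were called higher. Late erythroid genes summed to 839 and 805 CPM in treated libraries 2 and 4 and to 125 to 315 CPM in the other 3, and E2f7 was lowest in treated library 2. B-cell progenitor genes summed to 9.24 to 10.99 CPM in vehicle and 12.2 to 14.9 CPM in treated kidney, without overlap. Only 3 of the 11 were tested. Ebf1, which made up most of the sum, was called higher (6.80 ± 0.486 to 11.4 ± 1.47 CPM). The lowest log2 fold change in that list was -0.53 and did not pass. Of 6 stem and progenitor genes 4 passed the adjusted p higher, beside 29.4% of all genes passing in either direction. Of these 4 genes 1, Cd34, was called, while the list sum overlapped (270.5 to 303 and 255 to 323 CPM). The lowest log2 fold change in that list was -1.25 and did not pass. The platelet gene Pf4 was called higher at under 1 CPM (0.237 ± 0.107 to 0.787 ± 0.308). It was 1 of 2 megakaryocyte genes tested, the other had a log2 fold change of -0.09, and the list sum overlapped (12.1 to 16.7 and 12.8 to 15.5 CPM). Adipocyte genes summed to 1.86 to 14.2 CPM in vehicle and 22.1 to 106 CPM in treated kidney, and 3 of 4 tested were called higher, led by Cfd (log2 fold change 3.30 ± 0.76) and Adipoq (2.61 ± 0.61). Of the macrophage genes 3 of 4 were lower and 1 higher, and 2 of 3 tubular injury genes and 2 of 3 podocyte genes were higher. Among 5 proximal tubule genes 1 was called, the transporter Slc22a6 (1432 ± 144 to 718 ± 228 CPM, lower).

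Some marrow genes followed single E2F members across the 10 libraries, measured by Pearson's r of log2 CPM; these are descriptions, since the libraries share the 2 groups. Closest to E2f1 were Espl1 (separase; r = 0.997), Mtfr1 (0.996) and Tcf19 (0.996), and to E2f4 Sec14l2 (0.996), Cdt1, a replication licensing factor (0.996), and Mybl2 (0.995). These stayed high within groups, once group means were taken out: 0.989 for Espl1 and 0.993 for Sec14l2. E2f2 was closest to Mxd3, Nhlrc4 and Add1 (0.997, 0.996 and 0.996), of which Add1 encodes an adducin of the membrane skeleton. Within groups these 3 values were lower, at 0.882, 0.862 and 0.945. E2f8 was closest to Gm16580, Gm6212 and the histone gene H2ac15 (0.996, 0.995 and 0.995), and E2f7 to AC159819.1, Scml2 and Pacsin2 (0.983, 0.983 and 0.982). For E2f3, E2f5 and E2f6 the closest genes were Trmt2a (0.937), Tbc1d32 (0.865) and Rbmxl1 (0.977).

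Within groups, the members did not all vary together. E2f1 and E2f4 had a within-group r of 0.985 over the 10 marrow libraries and E2f7 and E2f8 one of 0.907, whereas E2f1 and E2f2 had 0.271. The values for all 28 pairs ran from -0.23 (E2f2 with E2f3) to 0.985, and 23 were above 0. On the opposite strand, E2f3 overlaps Gm11365 (1979 bases), E2f7 overlaps 1700020G17Rik (2800), E2f8 overlaps Gm2788 (3639) and E2f5 overlaps 1810022K09Rik (26). The counting is not stated to use strand, so reads from these pairs cannot be told apart.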

How the data were processed

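The deposited tables hold raw read counts per gene, 1 table per tissue, which the authors made without normalization. The study's methods and the submitters' processing notes name aligners and counters in 2 ways (STAR in both; featureCounts 2.0.3 and Salmon 1.5.2 in the notes) and the tables do not say which applied; nor is a strand setting stated. Of 55774 lines in each table, 287 repeated an earlier gene and 1 lacked values, leaving 55486 genes. Counts were filtered (filterByExpr, minimum count 10), TMM scaled and tested in edgeR 4.0.16 (robust quasi-likelihood, R 4.3.3), oxaliplatin against vehicle within each tissue. A fit of all 20 libraries gave the interaction and the vehicle tissue difference. Levels per kb used GENCODE M21 exons (GRCm38). CPM per library used TMM factors within each tissue, log2 CPM a prior count of 2. Scripts were tested on simulated counts. No pair of libraries in a group agreed within sampling noise (lowest chi-square per degree of freedom 7.30, 40 pairs). Named genes were all members, DP and pocket genes, and in each other list the 2 called genes with the largest rise and fall, of which 1 is not reported here. The members and the 27 lists were chosen with earlier results of these data known. DESeq2 1.42.0, other scalings and filters, a replicate block, a Y-linked covariate, hemoglobin genes left out and each library left out were tried.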

Additional observations from a re-analysis of the deposited data

Results flagged for a closer look

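Oxaliplatin changes differed between the tissues for 5 members by the interaction test in edgeR over 20 libraries. The marrow change minus the kidney change was -0.89 for E2f1, -1.73 for E2f2, -0.70 for E2f4, 0.88 for E2f5 and -1.90 for E2f7 on the log2 scale, with adjusted p-values from 1.5e-07 (E2f2) to 0.0213 (E2f4). For E2f1, E2f2 and E2f4 the kidney change did not pass its own test, and for E2f7 the kidney change was 1.62 and the marrow change -0.33 (adjusted p = 0.0126, or 0.198 in the fit of 20 libraries). No library lay far from the other 4 of its group by Dixon's test in any of the 32 combinations of a member and a group.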

How the results depend on the processing

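Over 38 tested results of the members, 618 of 648 alternative values kept their direction and side of the threshold, 3 were weaker, 9 stronger and 18 changed sign. The sign changes all belonged to results with an adjusted p of 0.345 or more. The calls of E2f1, E2f2, E2f4 and E2f8 in marrow and of E2f7 in kidney held in every alternative that could test them, with log2 fold changes of -0.96 to -0.66, -1.79 to -1.57, -1.10 to -0.69, -1.20 to -0.95 and 1.38 to 1.80. In kidney, the count of members called was 0 with at least 10 counts in every library, which removed E2f7, and 2 with no filter or in the fit of 20 libraries, where E2f8 joined on 0 to 21 reads a library; leaving out 1 library gave 1 to 2. Marrow E2f6 turned to 0.027 with DESeq2 or with its size factors, 0.13 by library size alone, 0.024 with the Y-linked covariate, 0.018 without hemoglobin genes and 0.047 in the fit of 20 libraries, and ran from -0.20 to 0.11 with a library left out. Library size alone turned marrow E2f3 to 0.019 and kidney E2f4 to 0.066, and the Y-linked covariate turned kidney E2f4 to 0.0086; kidney E2f2 ran from -0.014 to 0.19 with a library left out. The vehicle tissue difference of E2f6 turned to 0.019 with DESeq2 and 0.38 by library size alone, and ran from -0.12 to 0.027 with a library left out. The interaction of E2f6 turned to -0.011 without treated marrow libraries 3 and 4. The cause of these changes was not tested. Marrow E2f5 passed (0.43, adjusted p = 0.0427) and E2f7 did not (-0.27, adjusted p = 0.198) in the fit of 20 libraries. Replicate numbers gave no clear sign of pairing: deviations of same-numbered libraries correlated at -0.15 to 0.23, and 1 of 5 libraries correlated best with its own number in each check. A weak correlation between tissues cannot show whether same-numbered samples came from 1 mouse. With a replicate block, 4968 genes were called in marrow and 2017 in kidney, with 4 and 1 members, and no member's call changed. Depth limits kidney E2f7 and E2f8, whose 3-count floors are 0.0900 to 0.130 CPM.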
